A study of Saccharomyces cerevisiae with 6 samples.

Results

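The genes described here are 10 genes of replication licensing, the step that prepares each origin of DNA replication for a single round of firing. They are *MCM2* (YBL023C), *MCM3* (YEL032W), *MCM4* (YPR019W), *MCM5* (YLR274W), *MCM6* (YGL201C), *MCM7* (YBR202W), *CDC6* (YJL194W), *CDC45* (YLR103C), *TAH11* (YJR046W, also called *CDT1*) and *ORC1* (YML065W). They were chosen by systematic name for their role and not by level, and all 10 of them were found among the 6225 systematic names of the array, with 1 probe each. Their mRNA levels were measured on 1-colour Agilent yeast arrays in *ccr4Δ pbp1Δ*, *ccr4Δ* and wild-type *Saccharomyces cerevisiae*, in stationary phase and in log phase. Each genotype and growth phase had 1 array, so that the 6 arrays hold no replicates. The *ccr4Δ* cells lack the catalytic deadenylase Ccr4, and the *ccr4Δ pbp1Δ* cells lack in addition Pbp1, a partner of the poly(A)-binding protein. All cultures grew at 28°C in YPD, a rich glucose medium, and 100 ng of total RNA was labelled per array.

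The strains of the study derive from W303. Its strain list holds a *ccr4Δ* strain of mating type a, in which *CCR4* is replaced by *CgLEU2*, and 10B, a strain of mating type α with no named deletion. Both carry *ade2*, *can1*, *his3*, *leu2*, *trp1* and *ura3* mutations, and 10B also carries an *ADE2* reporter under the *HO* promoter. The labels do not say which listed strains were hybridised, and the genotype of the *ccr4Δ pbp1Δ* strain beyond its name is not given in the sources used here. Whether the stationary phase and log phase samples of a genotype came from 1 culture is not stated.

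Licensing takes place from late mitosis to G1. The origin recognition complex, of which Orc1 is the largest subunit, binds the origin and together with Cdc6 and Cdt1 (Tah11 in yeast) loads Mcm2-7, a ring of related ATPases, as an inactive double hexamer around DNA. At the onset of S phase Cdc45 and the GINS complex join Mcm2-7 to form the active helicase, while B-type cyclin kinase blocks new loading. In budding yeast the transcripts of *MCM2* to *MCM7* and of *CDC6* are known to peak around the M/G1 boundary. The *MCM2* promoter also drives the GFP reporters of the study.

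Every member was well above background in both of its spots on every array, 60 of 60 values. Levels are given as the signal in percent of the 75th percentile of the same array, and a ratio between arrays is a ratio of these levels. Levels of different probes cannot be compared, so each gene is described only against itself. The SD between the spots of a member within an array was 0.055 on the log2 scale when pooled, and 0.153 at most, a technical error that says nothing of the spread between cultures. Precision is limited by the number of arrays. Slide 1 held only wild-type in log phase and slide 2 held the rest, so that slide and genotype cannot be told apart in log phase. Slide and growth phase cannot be told apart in wild-type either. The deleted genes matched the labels. The *CCR4* signal was at least 41.3-fold lower on every array of a *ccr4Δ* background than in wild-type in the same phase, and *PBP1* was at least 209-fold lower in *ccr4Δ pbp1Δ* than in wild-type. These are bounds, since the probes were not well above background there.

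In log phase the helicase genes were higher in the mutants than in wild-type. All 6 *MCM* genes were higher in *ccr4Δ*, with a median fold of 1.68, *CDC6* was 3.16-fold and *CDC45* 1.57-fold higher. Of all genes 44.6% had a ratio above 1. *TAH11* and *ORC1* were not higher, except with *ACT1* as the reference, where their log2 ratios were 0.18 and 0.09. At a limit of 1.5-fold, 7 of the 10 members were higher in *ccr4Δ* and 0 lower, where 13.6% of the 5765 genes measured on both arrays were higher by that much and 15.9% lower. The median log2 ratio of the members was 0.69, against -0.07 for all genes. These are ratios of 1 array to 1 array and have no replicate check.

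*MCM2* encodes the helicase subunit that is a main target of the Dbf4-dependent kinase, and its level in log phase was 54.8% in *ccr4Δ pbp1Δ*, 71.6% in *ccr4Δ* and 38.7% in wild-type. Its fold of *ccr4Δ* over wild-type was 1.85, and the folds of its spots were 1.83 and 1.87. *MCM7* showed the largest difference of the helicase genes, with 54.8% in *ccr4Δ pbp1Δ*, 61.3% in *ccr4Δ* and 29.8% in wild-type. That is 2.06-fold more signal in *ccr4Δ* than in wild-type, with spot folds of 2.01 and 2.11, and *MCM7* was the only *MCM* gene past 2-fold. With *CDC6* it made 2 of 10 members higher by that much and 0 lower, against 5.57% and 4.53% of all genes.

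*MCM4*, whose product is the other main kinase target of the ring, had a level of 41.4% in *ccr4Δ pbp1Δ*, 46.4% in *ccr4Δ* and 27.1% in wild-type, a fold of 1.71 in *ccr4Δ* over wild-type. *MCM3* had 70.9% in *ccr4Δ pbp1Δ*, 85.9% in *ccr4Δ* and 52.1% in wild-type, a fold of 1.65. Both mutant levels lay above the wild-type level in each spot of these genes. *MCM6* had 26.8% in *ccr4Δ pbp1Δ*, 28.5% in *ccr4Δ* and 18.2% in wild-type, a fold of 1.57. *MCM5*, with 55.6% in *ccr4Δ pbp1Δ*, 60.7% in *ccr4Δ* and 41.8% in wild-type, had the smallest fold of *ccr4Δ* over wild-type, 1.45, just under the 1.5-fold limit. The 6 subunit genes therefore differed from wild-type in the same direction in *ccr4Δ*, by 1.45-fold to 2.06-fold. The SD over the genes was 0.18 on the log2 scale, with a gap of 1.42-fold between the highest and the lowest ratio.

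*CDC6*, the loading ATPase, had the highest ratio of all members. Its level in log phase was 23.8% in *ccr4Δ pbp1Δ*, 28.5% in *ccr4Δ* and 9.02% in wild-type. *CDC6* was thus 3.16-fold higher in *ccr4Δ* than in wild-type, with spot folds of 3.14 and 3.19, rank 114 of 5765 genes, where *MCM7* ranked 300 and *MCM2* 402. *CDC45*, the helicase activator, had 42.0% in *ccr4Δ pbp1Δ*, 49.0% in *ccr4Δ* and 31.1% in wild-type. The other loading factors lay the other way by small amounts. *TAH11* had 44.3% in *ccr4Δ pbp1Δ*, 42.1% in *ccr4Δ* and 47.1% in wild-type, and *ORC1* had 33.9% in *ccr4Δ pbp1Δ*, 30.9% in *ccr4Δ* and 36.8% in wild-type. Their folds of *ccr4Δ* over wild-type were 0.894 and 0.840.

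**Figure D1:**
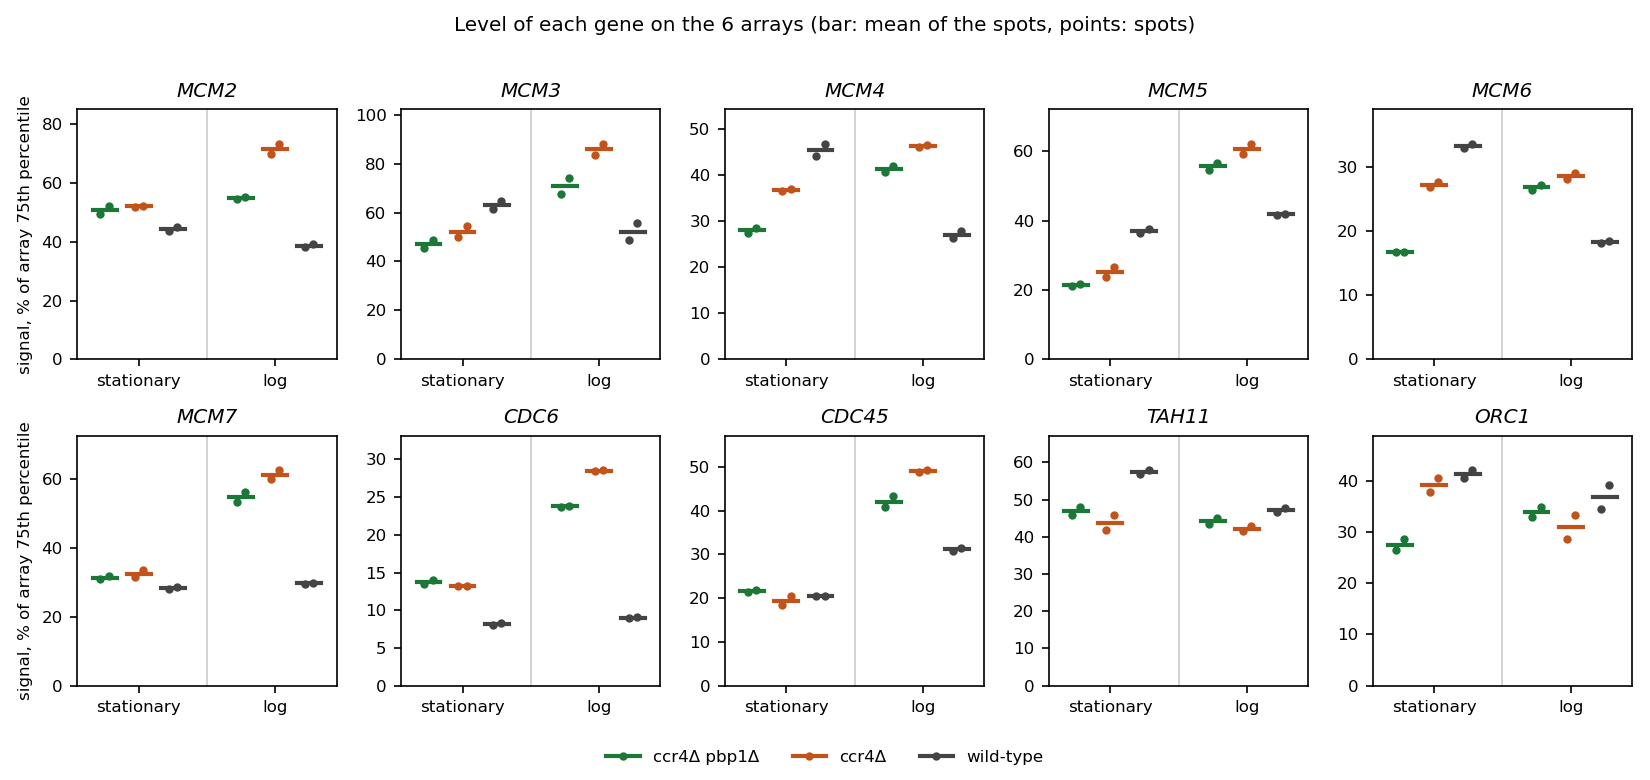
Level of each gene on the 6 arrays, in percent of the 75th percentile of the array (y axis, from 0, with a scale of its own for each gene), for stationary phase on the left and log phase on the right of each panel. Bars are the mean of the spots and points are single spots, lower spot first; in log phase *CDC6* stands at 23.8%, 28.5% and 9.02% in *ccr4Δ pbp1Δ*, *ccr4Δ* and wild-type, while *TAH11* lies between 42.1% and 47.1%.

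Other values moved with this comparison. The wild-type arrays differed from both mutants in mating type genes: the summed level of 7 a-specific genes in log phase was 1410% in *ccr4Δ pbp1Δ* and 1700% in *ccr4Δ*, against 24.2% in wild-type, where *MFA2* and *AGA2* were not well above background. That of 4 α-specific genes was 12.8% in *ccr4Δ pbp1Δ* and 35.3% in *ccr4Δ*, against 2320% in wild-type. In stationary phase the a-specific sum was 226% in *ccr4Δ pbp1Δ* and 701% in *ccr4Δ*, against 28.8% in wild-type, and the α-specific sum was 19.8% in *ccr4Δ pbp1Δ* and 18.6% in *ccr4Δ*, against 72.8% in wild-type. Deletion of *CCR4* and mating type cannot be told apart on these arrays. The summed level of 10 stationary phase genes in log phase was 465% in *ccr4Δ pbp1Δ* and 1130% in *ccr4Δ*, against 480% in wild-type. All 10 were higher in *ccr4Δ*, with a median log2 ratio of 2.03. Their part in the ratios of the licensing genes was not tested. A larger share of cells in 1 stage of the cell cycle and more mRNA per cell cannot be told apart in whole cultures.

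Deletion of *PBP1* in the *ccr4Δ* background went with small differences in log phase. The log2 ratio of *ccr4Δ pbp1Δ* over *ccr4Δ* lay between -0.39 for *MCM2* and 0.14 for *ORC1*, with a median of -0.16, against 0.01 for all genes. No member reached 1.5-fold in either direction, where 1.52% of 5916 genes were higher and 7.0% lower by that much. All 6 *MCM* genes, *CDC6* and *CDC45* were lower in *ccr4Δ pbp1Δ* than in *ccr4Δ*, with log2 ratios of -0.28 for *MCM3* and -0.26 for *CDC6*, and both spots of each went the same way, though with no scaling *MCM5* and *MCM6* had 0.015 and 0.050. With no scaling of the arrays the median of the members was -0.021, and that of all genes 0.15. The double mutant stayed above wild-type for the same 8 genes, where 41.8% of all genes lay above wild-type. Its folds over wild-type were 2.64 for *CDC6*, 1.84 for *MCM7* and 1.53 for *MCM4*, and 3 of 10 members were at least 1.5-fold higher and 0 lower, against 7.23% and 9.82% of all genes. This comparison shares the wild-type array with that of *ccr4Δ*, and the pair does not count as independent.

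In stationary phase the picture differed by gene. *CDC6* was again higher in the mutants, at 13.8% in *ccr4Δ pbp1Δ*, 13.2% in *ccr4Δ* and 8.17% in wild-type, a fold of 1.62 in *ccr4Δ* over wild-type with spot folds of 1.60 and 1.63, though its log2 ratio was -0.63 with *ACT1* as the reference. It was the only member past 1.5-fold in *ccr4Δ*, where 22.6% of 6034 genes were higher and 29.1% lower by that much, so the members' counts of 1 and 0 lie below the share of all genes. The median log2 ratio of the members was -0.18, against -0.08 for all genes.

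The helicase genes split in stationary phase. *MCM2* and *MCM7* were slightly higher in *ccr4Δ* than in wild-type, with log2 ratios of 0.23 and 0.20, but lower with no scaling (-0.17 and -0.20) and with *ACT1* as the reference (-1.09 and -1.12). *MCM2* had 50.7% in *ccr4Δ pbp1Δ*, 52.0% in *ccr4Δ* and 44.3% in wild-type, and *MCM7* had 31.4% in *ccr4Δ pbp1Δ*, 32.6% in *ccr4Δ* and 28.4% in wild-type. The other 4 were lower in *ccr4Δ*, from 1.21-fold for *MCM3* to 1.47-fold for *MCM5*. *MCM5* had 21.4% in *ccr4Δ pbp1Δ*, 25.1% in *ccr4Δ* and 37.0% in wild-type. For these 4 genes both mutants lay below wild-type in every spot, and *ccr4Δ pbp1Δ* was the lowest of the genotypes.

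*MCM6* showed this most. Its level in stationary phase was 16.7% in *ccr4Δ pbp1Δ*, 27.2% in *ccr4Δ* and 33.2% in wild-type. It was 1.63-fold lower in *ccr4Δ pbp1Δ* than in *ccr4Δ*, the only member at 1.5-fold in that comparison, where 10.8% of 5880 genes were lower by that much and 10.4% higher. Relative to wild-type *MCM6* was 1.99-fold lower in *ccr4Δ pbp1Δ*, *MCM5* 1.73-fold and *MCM4* 1.62-fold, and *ORC1* had a log2 ratio of -0.59. These were the 4 members past 1.5-fold downwards, and *CDC6*, at 1.69-fold, the only one upwards, against 29.5% and 24.0% of 5869 genes. *MCM4* had 28.1% in *ccr4Δ pbp1Δ*, 36.8% in *ccr4Δ* and 45.5% in wild-type. *MCM3* had 47.2% in *ccr4Δ pbp1Δ*, 52.2% in *ccr4Δ* and 63.1% in wild-type.

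*CDC45* differed little between the genotypes in stationary phase, with 21.5% in *ccr4Δ pbp1Δ*, 19.5% in *ccr4Δ* and 20.5% in wild-type. *TAH11* had 46.9% in *ccr4Δ pbp1Δ*, 43.7% in *ccr4Δ* and 57.4% in wild-type, so that it was lower in both mutants. *ORC1* had 27.5% in *ccr4Δ pbp1Δ*, 39.1% in *ccr4Δ* and 41.3% in wild-type. For *ORC1* the difference was between *ccr4Δ pbp1Δ* and the other genotypes, 1.42-fold lower than in *ccr4Δ*. The stationary phase arrays all lie on slide 2.

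**Figure D2:**
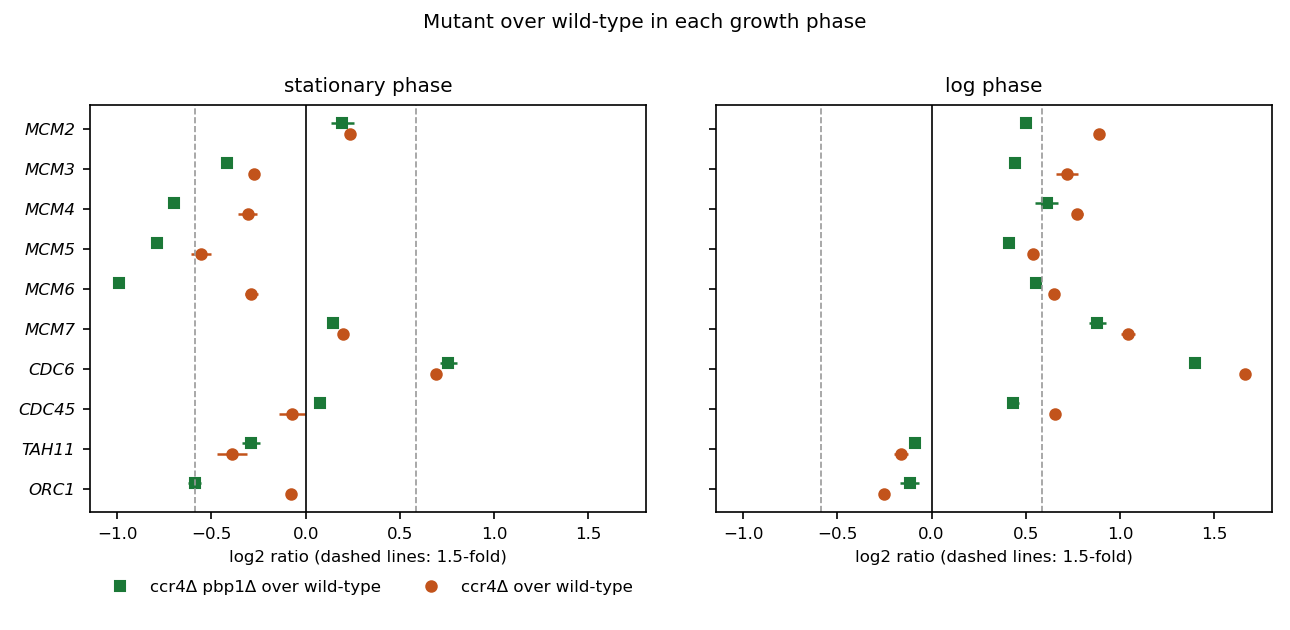
Log2 ratio of *ccr4Δ pbp1Δ* over wild-type (squares) and *ccr4Δ* over wild-type (circles) on the x axis for each gene (y axis), in stationary phase on the left and log phase on the right. Horizontal lines span the ratios of the single spots and dashed lines mark 1.5-fold. In log phase 8 of 10 genes lie above 0 in both mutants, against 41.8% of all genes in *ccr4Δ pbp1Δ* and 44.6% in *ccr4Δ*. In stationary phase *MCM3*, *MCM4*, *MCM5* and *MCM6* lie below 0 in both mutants. Both ratios of a phase share its wild-type array.

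The ratio of mutant to wild-type thus differed between the phases for most members. In *ccr4Δ* over wild-type the stationary phase log2 ratio was below the log phase ratio for 9 of 10 members, with a median difference of -0.89, against -0.04 for all 5756 genes measured on those arrays. The exception was *ORC1*, at 0.17. The differences were -1.10 for *MCM5*, -1.08 for *MCM4*, -0.99 for *MCM3* and -0.97 for *CDC6*. From the lowest of the 5756 genes these ranked 663, 679, 776 and 808, so that many other genes had lower differences. In *ccr4Δ pbp1Δ* over wild-type all 10 differences were negative, with a median of -0.69, against -0.0085 for all genes. The lowest value was -1.55 for *MCM6*, rank 328 of 5731 genes from the lowest. The share of all genes with a negative difference was not counted in either comparison. Both comparisons use the same wild-type arrays, of which the log phase array was alone on slide 1. A difference between slides cannot be told apart from these values. With 1 array per condition the difference between phases was not tested.

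Seen along the growth phases, the genotypes went different ways. The wild-type ratio sets slide 2 against slide 1, whereas both mutant ratios lie within slide 2. Growth phase and slide therefore cannot be told apart in wild-type. In wild-type the helicase genes were not lower in stationary phase as a group. *MCM6* was 1.82-fold higher in stationary phase than in log phase and *MCM4* 1.68-fold higher, while the other 4 lay between -0.18 and 0.27 on the log2 scale, *MCM2* and *MCM3* above 0 and *MCM5* and *MCM7* below. Of the 10 members 2 were at least 1.5-fold higher and 1, *CDC45*, lower, against 33.4% and 30.5% of 5761 genes. The median log2 ratio of the members was 0.18, against 0.05 for all genes.

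In both mutants all 6 *MCM* genes were lower in stationary phase than in log phase, except that with *ACT1* as the reference *MCM2* in *ccr4Δ pbp1Δ* and *MCM2*, *MCM4* and *MCM6* in *ccr4Δ* were higher. The median log2 ratio of the 6 genes was -0.63 in *ccr4Δ pbp1Δ*, -0.59 in *ccr4Δ* and 0.23 in wild-type. *MCM5* was 2.60-fold lower in *ccr4Δ pbp1Δ* and 2.42-fold lower in *ccr4Δ*. *MCM7* was 1.75-fold lower in *ccr4Δ pbp1Δ* and 1.88-fold lower in *ccr4Δ*, and *CDC45* was 1.95-fold lower in *ccr4Δ pbp1Δ* and 2.52-fold lower in *ccr4Δ*. *CDC6* was 1.72-fold lower in *ccr4Δ pbp1Δ* and 2.16-fold lower in *ccr4Δ*, against a log2 ratio of -0.14 in wild-type. In *ccr4Δ pbp1Δ* 6 of 10 members were at least 1.5-fold lower and 0 higher, against 28.6% and 35.9% of 5838 genes, and in *ccr4Δ* 5 of 10 were lower and 0 higher, against 26.2% and 29.9% of 5950 genes. *TAH11* hardly differed between the phases in the mutants, with folds of 1.06 in *ccr4Δ pbp1Δ* and 1.04 in *ccr4Δ*, and was 1.22-fold higher in stationary phase in wild-type.

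**Figure D3:**
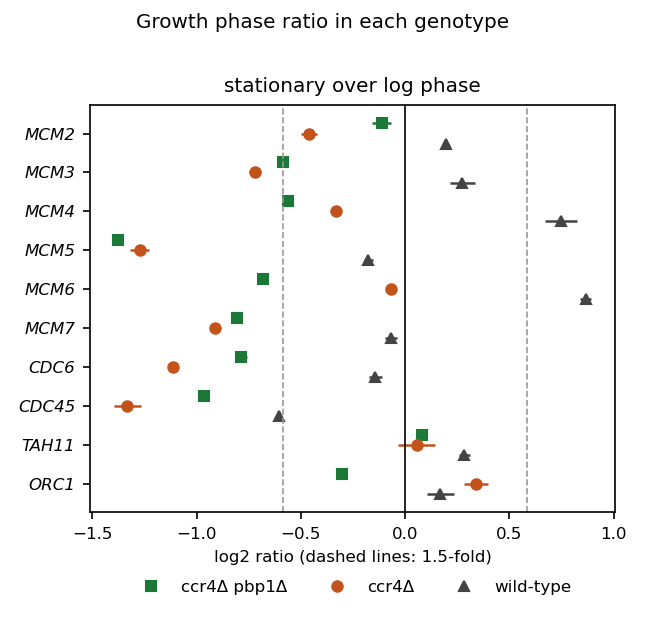
Log2 ratio of stationary phase over log phase (x axis) for each gene (y axis) in *ccr4Δ pbp1Δ* (squares), *ccr4Δ* (circles) and wild-type (triangles). Horizontal lines span the single spots and dashed lines mark 1.5-fold; the *MCM* genes have a median of -0.63, -0.59 and 0.23 in these genotypes, and *CDC45* lies below -0.6 in each.

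The subunit genes of the ring did not keep a fixed ratio to each other between growth phases. In wild-type the stationary over log phase ratio of *MCM6* was 2.06-fold that of *MCM5*. The same gap was 2.30-fold in *ccr4Δ*, again between *MCM6* and *MCM5*, and 2.41-fold in *ccr4Δ pbp1Δ*, between *MCM2* and *MCM5*. *MCM5* was the lowest of the 6 in each genotype. The SD of the 6 log2 ratios was 0.41 in *ccr4Δ pbp1Δ*, 0.43 in *ccr4Δ* and 0.42 in wild-type. Between the same genes the SD was 0.18 in the log phase ratio of *ccr4Δ* to wild-type and 0.31 in the stationary phase ratio. It was 0.50 in the stationary phase ratio of *ccr4Δ pbp1Δ* to wild-type, so genotype ratios were not always closer together than phase ratios. Since the hybridisation of each probe is compared only with itself, these gaps refer to changes and not to the amounts of the transcripts.

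One model could be fitted across all genes, with limma, on the 5728 genes measured on each of the 6 arrays. Its terms are genotype and growth phase without an interaction, which leaves 2 residual degrees of freedom and takes the phases of a genotype in place of replicates, and p-values were Benjamini-Hochberg adjusted over all genes. *CDC45* fell in stationary phase by 0.97 on the log2 scale (SE 0.25, adjusted p = 0.0206, between 0.00491 and 0.2002 over 13 alternatives). *MCM5* fell by 0.94 (SE 0.31, adjusted p = 0.0454, between 0.00224 and 0.2307), and both were lower in 3 of 3 genotypes. The log2 ratio of *MCM5* was only -0.18 in wild-type, a ratio across slides, against -1.27 in *ccr4Δ* and -1.38 in *ccr4Δ pbp1Δ*. That of *CDC45* was -0.61, -1.33 and -0.96 in the same order. With *ACT1* as the reference both genes were higher in stationary phase in wild-type, with log2 ratios of 1.75 for *CDC45* and 2.18 for *MCM5*. These genes were 2 of 10 members, in a fit that called 25.7% of all genes higher and 22.6% lower in stationary phase. *CDC6* differed by -0.68 (SE 0.27, adjusted p = 0.0801) and *MCM7* by -0.59 (SE 0.26, adjusted p = 0.1083). The limma adjusted p of *CDC6* was 0.0306 with quantile normalization and 0.0314 with the authors' processed values. It was 0.0451 with no scaling and 0.0488 with median scaling. *CDC6* thus passed under these scalings, but not with normexp, a trended prior or no filter on dim probes. The calls of *CDC45* and *MCM5* were lost when a mutant array was left out, which leaves 1 residual degree of freedom. Without either array of *ccr4Δ pbp1Δ* the limma difference of *CDC45* was -0.97 (SE 0.39, adjusted p = 0.1015) and that of *MCM5* was -0.72 (SE 0.42, adjusted p = 0.2307). Without either array of *ccr4Δ* the limma differences were -0.79 for *CDC45* (SE 0.48, adjusted p = 0.2002) and -0.78 for *MCM5* (SE 0.48, adjusted p = 0.205).

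For the genotypes the same limma fit called none of the 10 members. In *ccr4Δ* minus wild-type it called 0.0524% of all genes higher and 0.122% lower, and at an unadjusted p under 0.05 it held 1085 of 5728 genes and 1 of the 10 members, *CDC6*, at a log2 difference of 1.18 (SE 0.33, adjusted p = 0.1882). The adjusted p of *CDC6* lay between 0.0618 and 0.679 over 13 alternatives of the fit. *MCM7* had a difference of 0.62 (SE 0.32, adjusted p = 0.3349) and *MCM2* of 0.56 (SE 0.29, adjusted p = 0.3408), both higher in 2 of 2 phases. In stationary phase, however, both were lower with no scaling (-0.20 and -0.17) and with *ACT1* as the reference (-1.12 and -1.09). *MCM5*, higher in log phase and lower in stationary phase, had -0.0086 (SE 0.38). In *ccr4Δ pbp1Δ* minus wild-type *CDC6* had 1.08 (SE 0.33, adjusted p = 0.3661), again the only member at an unadjusted p under 0.05. In *ccr4Δ pbp1Δ* minus *ccr4Δ* no member had an unadjusted p under 0.05, and every adjusted p was 1.0. The limma fit called 0 of 5728 genes in *ccr4Δ pbp1Δ* minus wild-type, with 780 under the unadjusted limit, and 0 in *ccr4Δ pbp1Δ* minus *ccr4Δ*, with 120. A difference that changes sign between the phases enlarges the residual of such a fit, and the p-values measure the spread between these arrays only.

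Other replication genes were set beside the members for *ccr4Δ* over wild-type. Of all 5765 genes measured in log phase, 13.6% were at least 1.5-fold higher and 15.9% lower. In log phase, none of the 5 other subunits of the origin recognition complex was at least 1.5-fold higher and 1 was lower, with a median log2 ratio of 0.03. *ORC5* was the lower gene, at 17.8% in *ccr4Δ* and 34.0% in wild-type, a log2 ratio of -0.93, whereas *ORC3*, *ORC4* and *ORC6* lay between -0.04 and 0.13. Among 11 firing factors, which act between loading and fork start, 1 was at least 1.5-fold higher and 3 lower, with a median of -0.31. *CDC7*, the kinase that phosphorylates Mcm2-7, was higher at 23.0% in *ccr4Δ* and 12.3% in wild-type, a log2 ratio of 0.90. *SLD7* and *SLD3*, which bring Cdc45 to the origin, had log2 ratios of -1.15 and -0.71, and *MCM10*, which acts at helicase activation, had -0.84.

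The 18 fork proteins, polymerases, clamp, single-strand binding proteins and their partners, held 0 genes past 1.5-fold in either direction in log phase, with a median of 0.06. The largest ratios were 0.57 for *CSM3* of the fork protection complex, 0.56 for the flap nuclease gene *RAD27*, -0.53 for *RFA3* of the single-strand binding complex and 0.45 for the DNA ligase gene *CDC9*. Of 14 other genes expressed around the M/G1 boundary 4 were at least 1.5-fold higher and 0 lower, against 13.6% and 15.9% of all genes, with a median of 0.14. These 4 were the Pho85 cyclin gene *PCL2* at 1.38, *SIC1*, the inhibitor of B-type cyclin kinase, at 1.31, *SCW11* at 0.88 and the chitinase gene *CTS1* at 0.73. The 6 *MCM* genes had a median of 0.75 and lay between 0.54 and 1.04.

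In stationary phase only some of these lists stood apart from the *MCM* genes, whose median log2 ratio was -0.28. The fork proteins had a median log2 ratio of -0.28 for *ccr4Δ* to wild-type, with 1 of 18 genes at least 1.5-fold higher and 4 lower, and the firing factors -0.35, with 1 and 4 of 11. Among all genes 22.6% were higher and 29.1% lower by that much in stationary phase. The other M/G1 genes had a median of 0.75, with 8 of 14 higher and 3 lower, against -0.28 for the *MCM* genes. *SCW11* and *CTS1* had 1.60 and 1.22 there, and *PCL2* had -0.23. In the list of B-type cyclins with *CDC28* and *SIC1*, whose kinase blocks loading, 5 of 8 passed 1.5-fold upwards in each phase and 0 downwards, with medians of 1.03 in stationary phase and 0.99 in log phase. Among all genes 22.6% passed it upwards in stationary phase and 13.6% in log phase. The inhibitor gene *SIC1*, which is also in the M/G1 list, had 1.04 in stationary phase and 1.31 in log phase. *CLB6* had a log2 ratio of 3.12 in stationary phase and 2.04 in log phase, *CLB1* 2.49 and 1.47, and *CLB4* 1.02 and 1.01. The stationary phase ratio of *CLB6* rests on low levels, 3.13% in *ccr4Δ* and 0.36% in wild-type. The *MCM* genes and this list were both higher in *ccr4Δ* in log phase, but in stationary phase the list stood at 1.03 and the *MCM* genes at -0.28, a gap that was not tested.

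**Figure D4:**
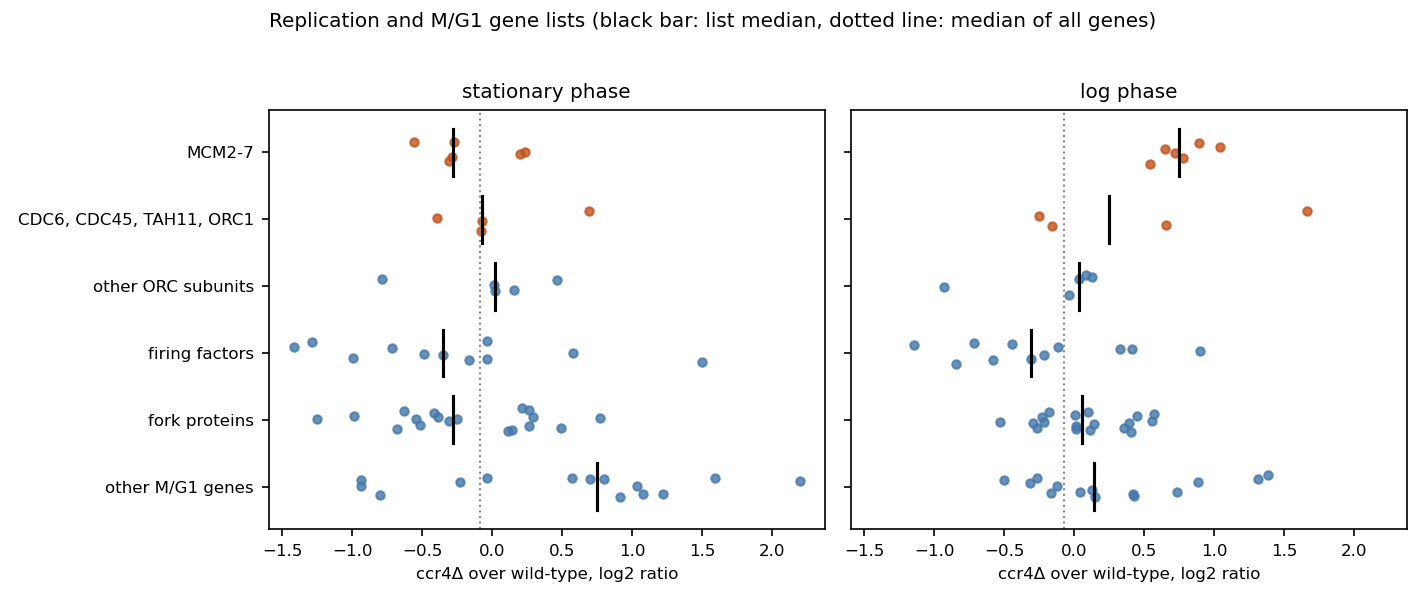
Log2 ratio of *ccr4Δ* over wild-type (x axis) by gene list (y axis), for the genes described here (orange) and other replication and M/G1 genes (blue), in stationary phase on the left and log phase on the right. Each point is a gene, black bars are list medians and the dotted line is the median of all genes; the *MCM* genes stand at -0.28 in stationary phase and 0.75 in log phase.

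The members also differed in how closely they followed each other over the 6 arrays. Pearson's correlation with the mean log2 profile of *MCM2* to *MCM7*, a description over 6 arrays that share genotypes and slide, was 0.99 for *MCM3*, 0.87 for *MCM7*, 0.86 for *MCM4*, 0.84 for *MCM5*, 0.73 for *MCM2* and 0.71 for *MCM6*, each of which is part of that mean. Outside the helicase it was 0.75 for *CDC45*, 0.73 for *CDC6*, 0.0054 for *ORC1* and -0.30 for *TAH11*. *TAH11* and *ORC1* also varied least of the 10, with an SD over the arrays of 0.16 and 0.22 on the log2 scale, whereas *CDC6* had 0.73 and *MCM5* 0.60. The highest array was *ccr4Δ* in log phase for *MCM2*, *MCM3*, *MCM4*, *MCM5*, *MCM7*, *CDC6* and *CDC45*, and wild-type in stationary phase for *MCM6*, *TAH11* and *ORC1*.

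Among 5589 other genes, those with the profile most like the mean of the *MCM* genes were *PTA1* (r = 0.983), a subunit of the mRNA 3' end cleavage and polyadenylation factor, *INP52* (0.965), a phosphoinositide phosphatase gene, *CWC2* (0.951), a splicing factor gene, *PCL2* (0.951) and *DFG5* (0.941), a gene of the cell wall. In log phase *PTA1* had 94.5% in *ccr4Δ pbp1Δ*, 115% in *ccr4Δ* and 60.6% in wild-type, and in stationary phase it had 50.8% in *ccr4Δ pbp1Δ*, 74.3% in *ccr4Δ* and 75.8% in wild-type. Of the compared genes 14 had a correlation over 0.9, over 6 arrays.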

How the data were processed

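Gene expression was measured on 6 arrays, 1 for each of 3 genotypes in stationary phase and log phase. The authors deposited spot intensity values as Agilent Feature Extraction 11.0.1.1 wrote them, and a table of processed intensity values whose sorted values do not differ between arrays, a mark of quantile normalization. The array design is annotated on sacCer2. Without control and outlier spots, each processed signal was divided by the 75th percentile of its array (10689 to 16412 signal units) and put on the log2 scale, and the mean was taken over the 2 spots of a probe. A gene counted as measured where both spots of a probe were well above background, which held for 92.7% to 98.4% of 6256 probes. Symbols are those of RefSeq for R64, in which 5720 of 6225 names were found, and no coordinates were used.

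Ratios between pairs of arrays were described without a test, with 1.5-fold as the limit for counts. The fit across genes was made with limma 3.58.1 (lmFit, eBayes) under R 4.3.3, with an adjusted p of 0.05. It recovered known changes in simulated data, which were larger than the fitted genotype difference of any member. The simulation had the same noise for every gene and no interaction of genotype and growth phase. It therefore does not show whether the fit could find differences like those of the members. Summaries used Python 3.11.15 and pandas 2.3.3. Alternatives were quantile normalization, median scaling, no scaling, normexp with an offset of 50 on the median signal (the scanner tables used here hold no mean signal), the authors' processed values, the brightest probe, no filter on dim probes, *ACT1* as reference, a 2-fold limit, a trended prior and leaving out each array. Every member is named. From each other list the 4 genes with the largest log phase ratio in size of *ccr4Δ* to wild-type are named, and the 5 genes most like the mean *MCM* profile. The members were chosen by role and not by level, but they, the lists and the limits were set with earlier results of these data known. Probe and promoter sequences were not used here.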

Additional observations from a re-analysis of the deposited data

Results flagged for a closer look

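Some genotype ratios had opposite signs in the growth phases in both spots of the gene. With 1 array per condition the difference was not tested. The differences against wild-type use its log phase array, the only one on slide 1. In *ccr4Δ* over wild-type the stationary phase log2 ratio minus the log phase log2 ratio was -0.99 for *MCM3*, -1.08 for *MCM4*, -1.10 for *MCM5*, -0.94 for *MCM6* and -0.73 for *CDC45*. For *CDC45* the opposite sign depended on the scaling: its stationary phase log2 ratio was -0.071, but 0.0097 under median scaling, 0.13 under quantile normalization, 0.0043 with normexp and 0.13 in the authors' processed values, and its log phase ratio stayed above 0. In *ccr4Δ pbp1Δ* over wild-type, which shares the wild-type arrays, it was -0.86 for *MCM3*, -1.31 for *MCM4*, -1.20 for *MCM5* and -1.55 for *MCM6*. In *ccr4Δ pbp1Δ* over *ccr4Δ* it was 0.33 for *CDC6*, 0.37 for *CDC45* and -0.64 for *ORC1*. With *ACT1* as the reference the stationary phase ratios of *CDC6* and *CDC45* in that comparison were -0.14 and -0.055. No group had enough arrays for a search for outlying samples.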

How the results depend on the processing

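In log phase the median log2 ratio of the members in *ccr4Δ* over wild-type (0.69) moved by less than the SD between spots under every alternative but the *ACT1* reference (1.03). With no scaling the other medians were -0.58 for *ccr4Δ* over wild-type in stationary phase, -0.021 in log phase and 0.13 in stationary phase for *ccr4Δ pbp1Δ* over *ccr4Δ*, 0.61 in log phase and -0.53 in stationary phase for *ccr4Δ pbp1Δ* over wild-type, and 0.098 in wild-type, -1.07 in *ccr4Δ* and -1.02 in *ccr4Δ pbp1Δ* for stationary over log phase. No scaling moved the median of all genes as well, to -0.48 for *ccr4Δ* over wild-type in stationary phase. Under median scaling *ccr4Δ* over wild-type in stationary phase was -0.096, *ccr4Δ pbp1Δ* over *ccr4Δ* was -0.090 in log phase and -0.042 in stationary phase, *ccr4Δ pbp1Δ* over wild-type in stationary phase was -0.22, and stationary over log phase was 0.0042 in wild-type and -0.70 in *ccr4Δ pbp1Δ*. Quantile normalization and the authors' processed values gave -0.084 and -0.085 for *ccr4Δ* over wild-type in stationary phase, -0.25 in each for *ccr4Δ pbp1Δ* over wild-type in stationary phase, 0.0066 and 0.0055 for stationary over log phase in wild-type and -0.72 in each in *ccr4Δ pbp1Δ*. With *ACT1* as reference, which itself had a log2 ratio of -2.35 in stationary over log phase in wild-type, the medians were -1.50 for *ccr4Δ* over wild-type in stationary phase, -0.30 for *ccr4Δ pbp1Δ* over *ccr4Δ* in stationary phase, 0.86 in log phase and -1.88 in stationary phase for *ccr4Δ pbp1Δ* over wild-type, and 2.53 in wild-type, 0.10 in *ccr4Δ* and -0.19 in *ccr4Δ pbp1Δ* for stationary over log phase. There *CDC6* in stationary phase turned to -0.63 in *ccr4Δ* and -0.77 in *ccr4Δ pbp1Δ* over wild-type, and *CDC45* in wild-type turned to 1.75 in stationary over log phase. Of 630 ratios of single genes recomputed, 294 stayed within the SD between spots and 333 went beyond it, and these 3 were past 1.5-fold and turned. With 1 probe per member the brightest probe could not change a ratio, and its ratios are among the 294. Ratios under 1.5-fold that changed sign are among the 333. An example is *MCM5* in wild-type in stationary over log phase, at -0.18 and, with *ACT1* as reference, 2.18. The cause of these changes was not tested.

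The limma fit of stationary minus log phase called 2 members, 1 with no filter on dim probes, and between 0 and 5 when an array was left out. Under quantile normalization, median scaling, no scaling and in the authors' processed values the limma fit called 3 members, *CDC6* being the added one. In the fits without an array, a genotype left with 1 array was assumed to vary like the others. Without either wild-type array 5 members passed. Without any 1 mutant array 0 passed, with 1 residual degree of freedom, while *CDC45* differed by -0.97 to -0.79 and *MCM5* by -0.78 to -0.72 with SEs of 0.39 to 0.48. No paired analysis was possible because the labels give no replicate number that could serve as a block beyond the genotype, which is already a term of the fit, so that phases are compared within genotypes. Leaving out the wild-type log phase array is also the fit without slide 1.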
